A study of Mus musculus with 7 samples.

Results

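The genes described here encode the proteins of the cytosolic ribosome, measured in hematopoietic stem cells (HSCs) with and without Cebpa. They were the genes named Rpl or Rps with a number and at most 1 letter, together with Rplp0, Rplp1, Rplp2 and Rpsa, wherever a probe set was annotated to 1 gene only, and genes that RefSeq lists as pseudogenes were left out. This gave 58 of the 19938 genes tested, 37 of the large subunit (Rpl) and 21 of the small subunit (Rps). RefSeq holds 81 symbols that fit the rule. Of the others, 16 were listed only on probe sets with several symbols, among them Rpl3, Rpl11, Rps24 and Rps26, and the rest were not used here. None of these was analysed here as a single gene.

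HSCs (LSK, CD150+, CD48-) were sorted from the marrow of female C57BL/6 mice. LSK stands for lineage-negative, Sca1-positive and c-Kit-positive. Control mice were homozygous for a loxP-flanked Cebpa allele (Cebpa fl/fl, 3 arrays), and the others had Mx1Cre in addition to these alleles (Cebpa Δ/Δ, 4 arrays). Mx1 responds to interferon, so Cre is induced in many cell types of the mouse and not only in HSCs. All mice of both genotypes, aged between 10 and 12 weeks at injection, received 3 injections of pIpC, an inducer of interferon, and cells were taken at day 18. The design counts as many mice as arrays. An array's name gives its genotype and the replicate number of its title. The comparison asked which genes differ in HSCs after deletion of Cebpa, the gene of the granulocyte regulator C/EBPα.

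A ribosome has a large and a small subunit, each made of ribosomal RNA and many proteins, most of which are needed in equal amounts. Messages of ribosomal proteins are among the most abundant in a growing cell. Most begin with a C followed by an uninterrupted run of C and T, the terminal oligopyrimidine tract, through which mTOR signalling and the RNA-binding protein LARP1 set how well they are translated. HSCs are known for a low rate of protein synthesis, and loss of 1 copy of a ribosomal protein gene causes Diamond-Blackfan anemia in humans. An array reads the amount of message and not its translation.

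Start sites are shown for genes toward both ends of the order in which these genes varied between arrays, described below. Those of Rplp2, which is not in that order, and of a pair of paralogs are shown as well. RefSeq promoter sequences (GRCm38.p6) were held for 47 of the 58 genes. The genes without one were Rpl7, Rpl8, Rpl21, Rpl23a, Rpl29, Rpl30, Rpl36, Rplp1, Rps14, Rps20 and Rps29. Each line gives 20 bases before and 10 bases from the RefSeq start on, with the longest run of C and T in capitals where it has at least 5 letters.
Rps25, chr9:44407694-44407723, + strand: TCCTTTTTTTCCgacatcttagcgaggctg
Rpl13, chr8:123102330-123102359, + strand: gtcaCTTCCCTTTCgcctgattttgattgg
Rps10, chr17:27635235-27635264, - strand: acgctgcgccgcgcacgCCCCTTCCTTTCC
Rps13, chr7:116334181-116334210, - strand: cgcgcgagagcaaacgtcggtgagtggcgt
Rpl5, chr5:107900508-107900537, + strand: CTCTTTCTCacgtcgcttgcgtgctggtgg
Rpl34, chr3:130730328-130730357, - strand: ccgCCCCTTCCTTTTCCTCTTCCggggacg
Rps7, chr12:28635944-28635973, - strand: gaagagCTTCCggtttccacccacctactt
Rplp2, chr7:141447631-141447660, + strand: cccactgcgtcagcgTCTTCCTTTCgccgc
Rpl10l, chr12:66284392-66284421, - strand: agaaatttggCCTCCattttgcggctggcg
Rpl3l, chr17:24727806-24727835, + strand: cagctgagtgttctagctctgtcatttgac

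A run of at least 8 C and T letters on the gene's strand, within 20 bases either side of a RefSeq start, was found for 20 of the 47 genes (42.6%), against 18.4% of the 15614 tested genes with a promoter. A run of at least 10 was found for 17 of them (36.2%), against 8.86%. The striated muscle paralog Rpl3l showed no run of 6 at the start printed, and Rpl10l showed 1 of 5. Rps25, Rpl13 and Rps10 held runs of 12, 10 and 13 letters in the printed windows, and Rpl5 held 1 of 9. The runs of Rps25, Rpl13 and Rpl5 ended before the RefSeq start, and that of Rps10 crossed it. The window of another RefSeq start of Rpl34, not printed, held a run of 8. Rps13 and Rps7 held at most 2 and 5, so long and short runs stood toward both ends of the order.

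Over the 250 bases before and 50 after the start, and on both strands, the ETS motif CCGGAAG was in the promoters of 18 of the 47 genes (38.3%), against 13.6% of all tested genes. The C/EBP motif TTGCNNAA was in 4 (8.51%) against 11.3%. The GC box GGGCGG was in 27 (57.4%) against 52.9%, the TATA box TATAAA in 6 (12.8%) against 13.6%, the E-box CACGTG in 5 (10.6%) against 9.50%, and the YY1 motif AAGATGGC in 2 (4.26%) against 3.77%. CTTTCC lay within 20 bases of the start, on either strand, in 5 (10.6%) against 4.13%. These are matches of letters, not sites shown to be bound.

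The array values were the authors' RMA intensities, taken here to log2. RMA brings the probe values of every array to a common distribution. The median of the arrays lay between 46.2 and 50.4 before log2. The first principal component of all genes separated the genotypes. The second (23.3% of the variance) set apart fl/fl 1 (score 29.0) and Δ/Δ 3 (20.9), which also had the lowest weights of the 7 arrays in limma (0.540 and 0.679). Cebpa itself was lower in every Δ/Δ array than in any fl/fl array, at 5.64 ± 0.11 (SD, n = 3) and 5.22 ± 0.08 (n = 4), a log2 difference of -0.41 (SE 0.07, adjusted p = 0.337 by limma). Of the sort's own markers, Kit stood at 10.42 ± 0.04 (SD) in the 3 control arrays and at 10.09 ± 0.27 in the 4 Cebpa Δ/Δ arrays, and Slamf1, the gene of CD150, 7.97 ± 0.09 and 7.69 ± 0.54. Cd48, for which cells were to be negative, was 2.75 higher in Cebpa Δ/Δ on the log2 scale (adjusted p = 0.412 by limma).

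Messages of other blood cells differed between the genotypes and stood beside every value below. Of 12 neutrophil markers, 10 were lower past the study's thresholds, an unadjusted p under 0.05 by limma and a change over 1.5-fold. The linear values of the 12 summed to between 7739 and 20275 in the fl/fl arrays and to between 1448 and 2284 in the Δ/Δ arrays. Of 10 measured erythroid markers, 9 were higher, with sums of 2357 to 4034 against 6927 to 10953. Of 8 macrophage markers 3 were higher, with sums of 1022 to 1459 against 1673 to 2283, and of 10 T, NK and B cell markers 3 were higher, with sums of 528 to 1049 against 655 to 1252. RMA values have no true zero, so no marker can be given as absent. The part of such cells in the ribosomal protein values was not tested. In bulk samples, fewer cells of a type and less RNA per cell cannot be told apart.

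No ribosomal protein gene passed a threshold in either direction. At a Benjamini-Hochberg adjusted p under 0.05 by limma, 0 of the 58 were called, as were 0 of all genes. Past the study's thresholds 0 of 58 were higher, where 1.57% of all genes were, and 0 were lower, where 0.617% were. At an unadjusted p under 0.05 alone, 0 of 58 were higher beside 4.4% of all genes, and 0 were lower beside 3.08%. The smallest unadjusted p of the 58 was 0.0647 and their smallest adjusted p was 0.676, both of Rpl7.

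The differences were small as well as uncalled. The median log2 difference, Cebpa Δ/Δ minus Cebpa fl/fl, was 0.01 over the 58 genes and changed sign with the scaling (-0.045 after cyclic loess and -0.01 after quantile normalization). The range was -0.09 (Rpl12) to 0.39 (Rpl10l), with 37 genes above 0 and 21 below. Over all genes 9974 were above 0 and 9964 below. Ribosomal protein genes varied together between arrays, as described below, so their signs are not independent of one another. The large subunit had a median of 0.01 and the small subunit of 0.02. Of the 58 genes, 48 (82.8%) lay within 0.1 of 0, against 52.6% of all genes.

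The 95% interval of the log2 difference lay inside 1.5-fold in both directions for 54 of 58 genes (93.1%), against 74.2% of all genes and 61.3% of the 9969 genes above the median level. The median interval reached 0.173 to either side, against 0.266 for all genes. In the top 1% of levels all 46 ribosomal protein genes had intervals inside 1.5-fold, and 121 of the 154 other genes there did (78.6%). Values so near the top of the scale, on arrays brought to a common distribution, may be compressed, which would narrow differences and intervals alike, and this was not tested. Without 5 paralogs (Rpl3l, Rpl10l, Rpl32l, Rpl39l and Rps27l), the bound farther from 0 was a median of 1.17-fold over the other 53 genes. The exceptions were Rpl12, Rplp2, Rps27l and Rpl10l, whose intervals reached past 1.5-fold.

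**Figure D1:**
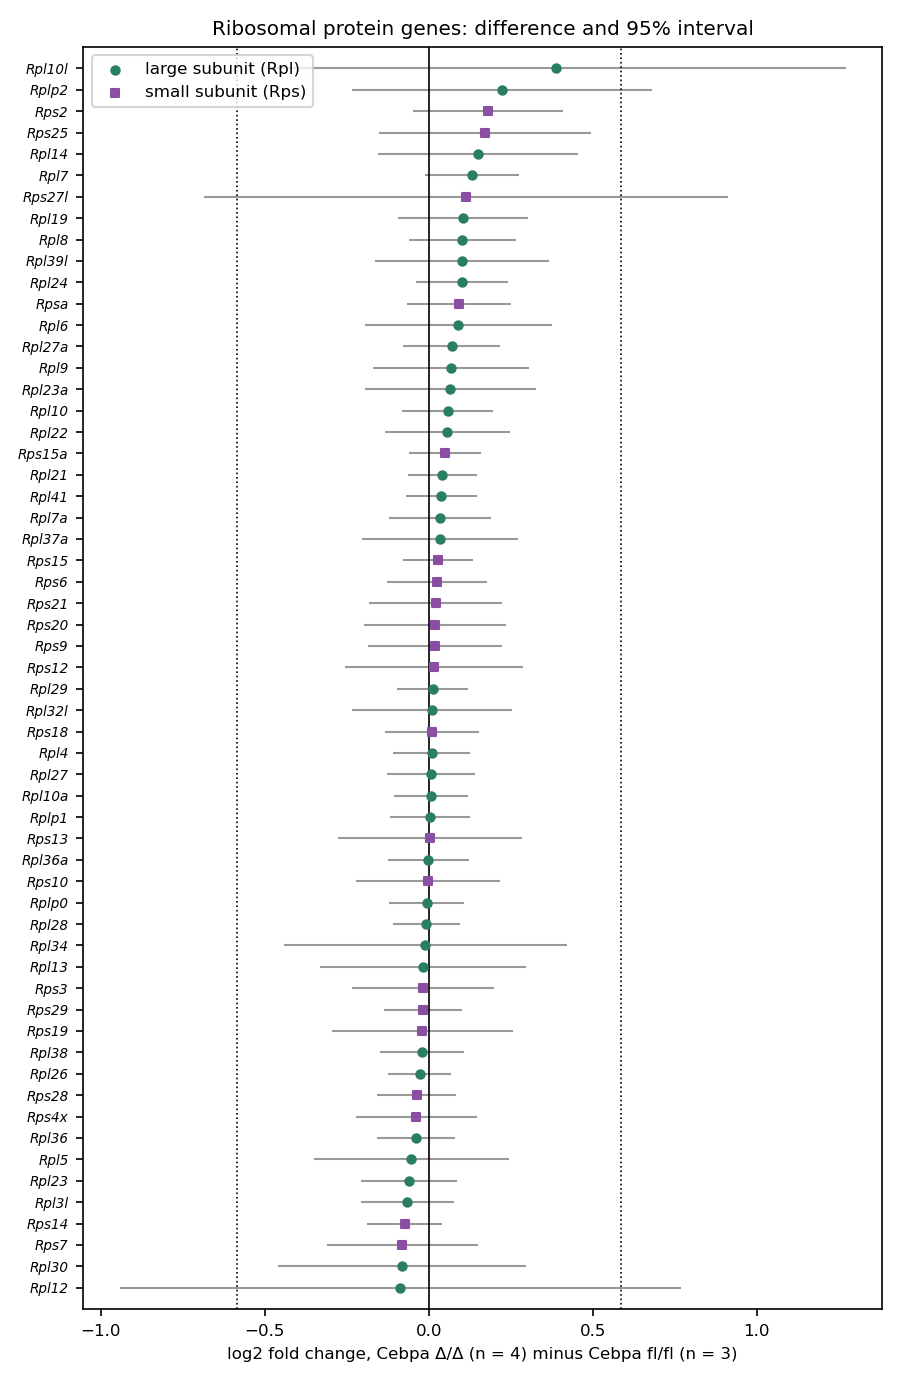
Log2 difference between Cebpa Δ/Δ (n = 4) and Cebpa fl/fl (n = 3) arrays for each of the 58 genes, with its 95% interval from limma. Circles are large-subunit and squares small-subunit genes, and dotted lines mark 1.5-fold. Every interval includes 0, and 4 of them (Rpl10l, Rplp2, Rps27l, Rpl12) cross a dotted line.

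Rpl7, a protein of the large subunit, was the only gene of the 58 (1.72%) whose arrays did not overlap between genotypes with Cebpa Δ/Δ higher, beside 3.51% of all genes. None did so with Cebpa Δ/Δ lower, beside 2.46% of all genes. Its log2 values were 11.87, 12.03 and 11.94 in Cebpa fl/fl and 12.04, 12.16, 12.06 and 12.06 in Cebpa Δ/Δ. The highest control array and the lowest Cebpa Δ/Δ array were thus 12.03 and 12.04. The difference was 0.13 (SE 0.06, interval -0.01 to 0.27, limma unadjusted p = 0.0647, adjusted p = 0.676). The other 3 probe sets of Rpl7 gave differences of 0.08, 0.08 and 0.06, and in none of them did every Cebpa Δ/Δ array lie above every control. In each, the highest control and the lowest Cebpa Δ/Δ array had the same value at 3 decimals (11.951, 11.923 and 11.488).

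The other genes toward the high end of the differences overlapped between genotypes. Rps2, a small-subunit protein near the mRNA entry, measured 11.57, 11.86 and 11.83 in Cebpa fl/fl and 11.94, 11.85, 12.08 and 11.86 in Cebpa Δ/Δ, with a difference of 0.18 (SE 0.09, unadjusted p = 0.103 by limma). Rps25, which some viral messages need to recruit ribosomes, measured 11.68, 12.22 and 12.07, and 12.25, 12.15, 12.02 and 12.21, with a difference of 0.17 (SE 0.13). The other 2 probe sets of Rps2 gave differences of 0.05 and 0.12. For both genes, fl/fl 1 was the lowest of the 7 arrays, and without it the differences were 0.09 (Rps2) and 0.02 (Rps25). Rpl14 (9.29, 9.63 and 9.59, against 9.83, 9.65, 9.72 and 9.41) had a difference of 0.15 (SE 0.13) and was also lowest in fl/fl 1, without which it was 0.04. Rpl19 had a difference of 0.10 (SE 0.08). Without fl/fl 1 the median difference over all 58 genes was 0.00.

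The stalk of the large subunit recruits the elongation factors and is formed by Rplp0, Rplp1, Rplp2 and, at its base, Rpl12. Rplp0, often used as a reference gene in qPCR, measured 12.06, 12.07 and 12.05 in Cebpa fl/fl and 12.03, 12.05, 12.12 and 11.999 in Cebpa Δ/Δ, a difference of -0.01 (SE 0.05). Rplp1 measured 12.57, 12.62 and 12.60, and 12.60, 12.61, 12.67 and 12.52, a difference of 0.00 (SE 0.05). The spread of both covered their difference. Rplp2 measured 7.47, 8.23 and 8.21, and 8.23, 8.12, 8.21 and 8.21, so that 6 arrays lay between 8.12 and 8.23 and fl/fl 1 lay below all of them. Its difference was 0.22 (SE 0.19) and turned to -0.03 without fl/fl 1. Rpl12 ranged from 5.99 (Δ/Δ 2) to 7.30 (fl/fl 3), and its difference of -0.09 (SE 0.36) turned to 0.23 without fl/fl 3, so for this gene a 1.5-fold difference was not detectable in these arrays. Rplp2 and Rpl12 were each read by 1 probe set.

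Rpl5 binds the 5S ribosomal RNA together with Rpl11, and the complex holds back Mdm2, the inhibitor of p53, when ribosome assembly fails. Rpl5 measured 11.63, 11.15 and 11.30 in Cebpa fl/fl and 11.26, 11.23, 11.46 and 11.28 in Cebpa Δ/Δ. The difference was -0.05 (SE 0.12), with fl/fl 1 the highest array, and was 0.08 without it. Rpl11 was listed only on probe sets with several symbols.

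Of 20 genes linked to Diamond-Blackfan anemia, 10 were measured, 0 passed any threshold and their median difference was -0.02. Rps19, the gene most often mutated in that disease and needed to mature the small subunit's RNA, measured 10.67, 10.62 and 10.73 in Cebpa fl/fl and 10.62, 10.46, 10.94 and 10.58 in Cebpa Δ/Δ. The difference was -0.02 (SE 0.11), with both the lowest and the highest array among Cebpa Δ/Δ. Rps7, another of these genes, measured 11.91, 11.67 and 11.69, and 11.68, 11.56, 11.86 and 11.61, a difference of -0.08 (SE 0.10) with fl/fl 1 highest. Rps28 and Rps29 had differences of -0.04 (SE 0.05) and -0.02 (SE 0.05).

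Rps14, whose loss of 1 copy contributes to the anemia of the 5q- syndrome, lay toward the low end of the differences. Its log2 values were 12.27, 12.22 and 12.22 in Cebpa fl/fl and 12.13, 12.16, 12.23 and 12.13 in Cebpa Δ/Δ, and the groups overlapped through Δ/Δ 3. The difference was -0.07 (SE 0.05, unadjusted p = 0.162 by limma). After cyclic loess it was -0.14 (unadjusted p = 0.0452).

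Ribosomal proteins with a role of their own in development or signalling also lay near 0. Rpl22, which T cell development requires, had a difference of 0.06 (SE 0.08) and Rpl38, which the translation of Hox messages requires, of -0.02 (SE 0.05). Rps6, the substrate of S6 kinase, had a difference of 0.03 (SE 0.06) and Rpl10, a late addition to the large subunit, of 0.06 (SE 0.06). Rpsa, which is also the laminin receptor, measured 11.99, 12.20 and 12.15 in Cebpa fl/fl and 12.28, 12.22, 12.17 and 12.17 in Cebpa Δ/Δ, a difference of 0.09 (SE 0.07). The 5 measured genes at the peptide exit tunnel (Rpl4, Rpl19, Rpl22, Rpl23a and Rpl26) ranged from -0.03 to 0.10, and 10 genes of the small subunit's head from -0.04 to 0.17. The 16 measured genes known to carry snoRNAs in their introns had a median difference of 0.03.

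The remaining genes named by level had small differences. Rps29 had the largest values of the 58, from 12.89 to 13.01. The differences of Rpl28 (-0.01, SE 0.04) and Rpl41 (0.04, SE 0.04) were below their errors. Rpl23 (-0.06, SE 0.06), Rpl36 (-0.04, SE 0.05), Rpl23a (0.07, SE 0.11), Rpl30 (-0.08, SE 0.16) and Rpl34 (-0.01, SE 0.18) gave no call either.

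The paralogs gave no call either. Rpl3l, of striated muscle, held the identical value 4.22 on 5 of 7 arrays, with 4.31 in fl/fl 1 and 4.07 in Δ/Δ 2. Such repeats occurred in 1778 of all genes, and Rpl3l was the only one of the 58. Rpl39l, of the testis, ranged from 3.38 to 3.85, with a difference of 0.10 (SE 0.11), and Rpl32l from 7.10 to 7.49, with a difference of 0.01 (SE 0.10). Rpl10l, a retrogene of the testis, had the highest difference, 0.39, with an SE of 0.37, and its values of 4.48, 4.80 and 3.47 in Cebpa fl/fl and 4.04, 4.77, 4.75 and 4.995 in Cebpa Δ/Δ overlapped. Without fl/fl 3 the difference was -0.003, so its place at the high end rested on that array. Rpl3l, Rpl10l and Rpl39l were the 3 genes of the 58 below the median level of all genes.

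Rps27l, a paralog of Rps27 that p53 induces, had the largest SD within genotypes (0.492) of the genes with mean values above 9. It measured 10.49, 9.98 and 9.89 in Cebpa fl/fl and 10.41, 9.64, 10.96 and 9.93 in Cebpa Δ/Δ. The difference was 0.11 (SE 0.33) and turned to -0.13 without Δ/Δ 3, while single arrays of Cebpa Δ/Δ differed by 1.32 on the log2 scale. Fau, whose product is processed into a small-subunit protein and which lies outside the symbol rule, had a difference of -0.08 (SE 0.08).

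**Figure D2:**
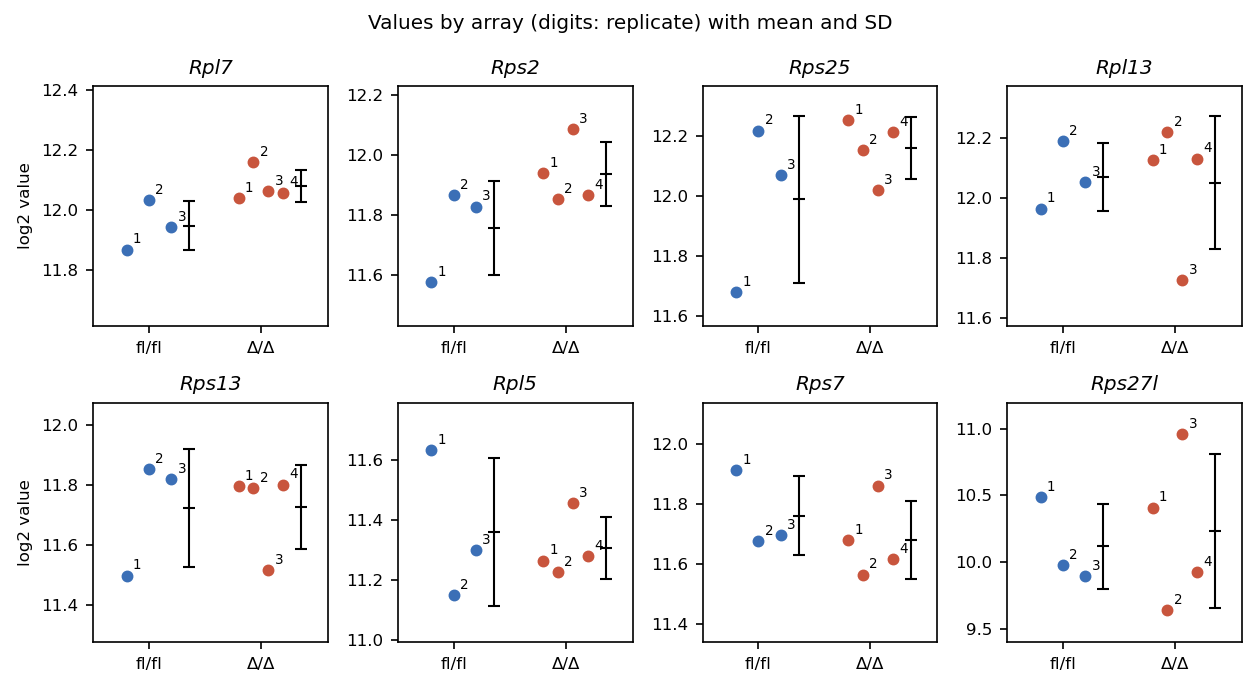
Log2 values of 8 genes in each array, by genotype, with the mean and SD of each genotype in black. Digits are replicate numbers, each panel has its own range on the y axis and that of Rps27l is wider. Rpl7 is the only panel in which the genotypes do not overlap, and fl/fl 1 or Δ/Δ 3 holds the lowest or highest value in each.

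Most of these values lay near the top of the measured range. Among the 200 genes in the top 1% of mean values 46 were ribosomal protein genes. This is a description with no test, because the brightest probe set stood for each gene and probes differ in brightness. The 38 genes with several probe sets to choose from had a median level of 12.05 and the 20 with 1 probe set of 9.58. The 20 include all 5 paralogs, whose median level was 4.47. How much of this gap comes from the choice of probe set was not tested. Their highest array value was 13.01, where the highest of any gene was 13.02. Values near the top of an array have little room above them, and a normalization that gives every array the same distribution can take out part of a shift shared by so many of the highest genes. How much of such a shift would remain was not tested. The share of the 58 genes in the summed linear values of all genes was 6.24% ± 0.09 (SD, n = 3) in Cebpa fl/fl and 6.25% ± 0.14 (n = 4) in Cebpa Δ/Δ.

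**Figure D3:**
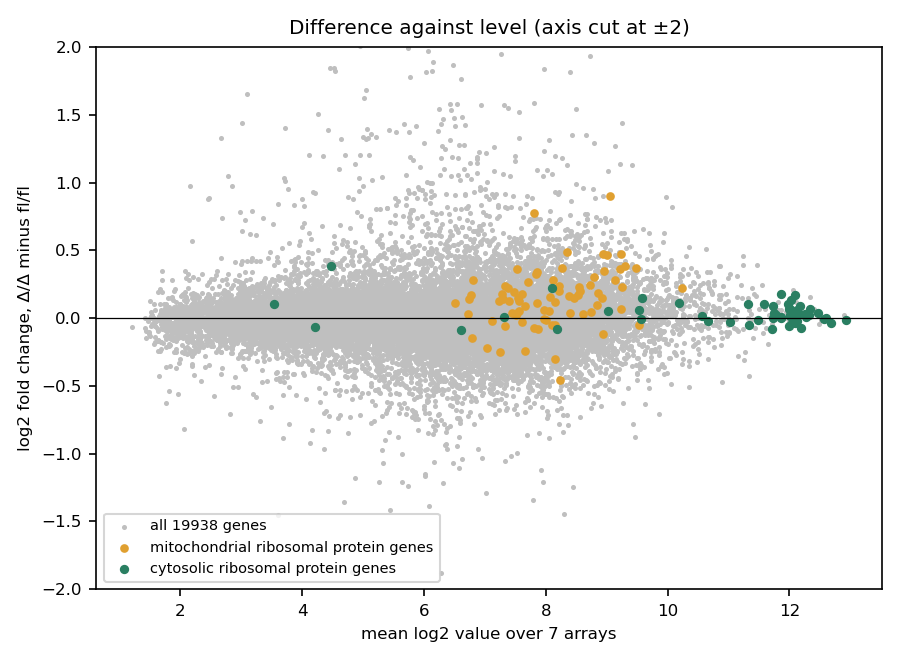
Log2 difference between Cebpa Δ/Δ and Cebpa fl/fl against mean log2 value over the 7 arrays for all 19938 genes (grey), 77 mitochondrial ribosomal protein genes (orange) and the 58 cytosolic ribosomal protein genes (green). Most green points lie at mean values above 11 and between differences of -0.1 and 0.2, and the axis leaves out genes beyond 2 in either direction.

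What variation these genes had ran across genotypes. The mean deviation of the 58 genes from their own means was -0.060, 0.014 and -0.010 in fl/fl 1 to 3 and 0.023, -0.022, 0.046 and 0.008 in Δ/Δ 1 to 4. Cebpa fl/fl averaged -0.018 ± 0.038 (SD, n = 3) and Cebpa Δ/Δ 0.014 ± 0.028 (n = 4). The arrays of both genotypes overlapped, with the lowest (fl/fl 1) and the highest (Δ/Δ 3) far apart. Within Cebpa Δ/Δ the small subunit ran from -0.064 in Δ/Δ 2 to 0.102 in Δ/Δ 3 (SD 0.071) and the large from 0.003 to 0.025 (SD 0.010). Within Cebpa fl/fl the order of the SDs was the other way, 0.027 for the small and 0.045 for the large subunit.

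The 50 genes above a level of 9, paralogs left out, held 63.2% of their variance in 1 component. The first component of all 19938 genes held 34.995%. With 7 arrays a first component can hold a large share, and sets of 50 other genes were not tested. The scores of the 50 genes' component were 0.85, -0.41 and 0.01 in fl/fl 1 to 3 and -0.35, -0.58, 0.80 and -0.31 in Δ/Δ 1 to 4. The component thus placed fl/fl 1 and Δ/Δ 3 at 1 end and Δ/Δ 2 at the other, where the first component of all genes placed the genotypes apart. These 3 arrays also held most of the extremes. The lowest or highest of the 7 values fell in fl/fl 1 for 26 of the 58 genes (44.8%, against 39.5% of all genes), in Δ/Δ 3 for 27 (46.6% against 33.8%) and in Δ/Δ 2 for 25 (43.1% against 24.6%). Among the other genes above the median level, the shares were 37.5% in fl/fl 1, 38.5% in Δ/Δ 3 and 24.1% in Δ/Δ 2. Thus fl/fl 1 and Δ/Δ 3 held the most extremes among genes in general, and Δ/Δ 2 did not.

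The direction differed from gene to gene. The genes below were chosen after their values were seen, from those toward the ends of that component, and are not in each case its outermost genes. The component was computed from these same values, so the directions toward its ends follow from the ordering. Rpl13 measured 11.97, 12.19 and 12.05 in fl/fl 1 to 3 and 12.13, 12.22, 11.73 and 12.13 in Δ/Δ 1 to 4. Rps13 measured 11.50, 11.85 and 11.82, and 11.80, 11.79, 11.52 and 11.80. Rps10 measured 11.96, 12.18 and 12.13, and 12.17, 12.16, 11.90 and 12.12. All 3 had their 2 lowest values in fl/fl 1 and Δ/Δ 3, in either order.

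At the other end, Rpl34 measured 9.79, 9.44 and 9.47 in fl/fl 1 to 3 and 9.56, 9.28, 9.97 and 9.42 in Δ/Δ 1 to 4. Rps4x, encoded on the X chromosome, measured 12.10, 12.01 and 12.09, and 11.94, 11.95, 12.20 and 12.01. Rpl34, Rpl5 and Rps7 had their 2 highest values in fl/fl 1 and Δ/Δ 3. Not every gene toward this end did so. Rps19, with a larger weight in the component (0.192) than Rps4x (0.139), had its 2 highest values in Δ/Δ 3 and fl/fl 3. Taking each array against the mean of the others of its genotype, fl/fl 1 and Δ/Δ 3 deviated the same way for 39 of the 58 genes (67.2%), below in both for 22 and above in both for 17. Over all genes this share was 53.8%, and the second component of all genes set the same arrays apart. The cause of the shared direction was not tested.

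**Figure D4:**
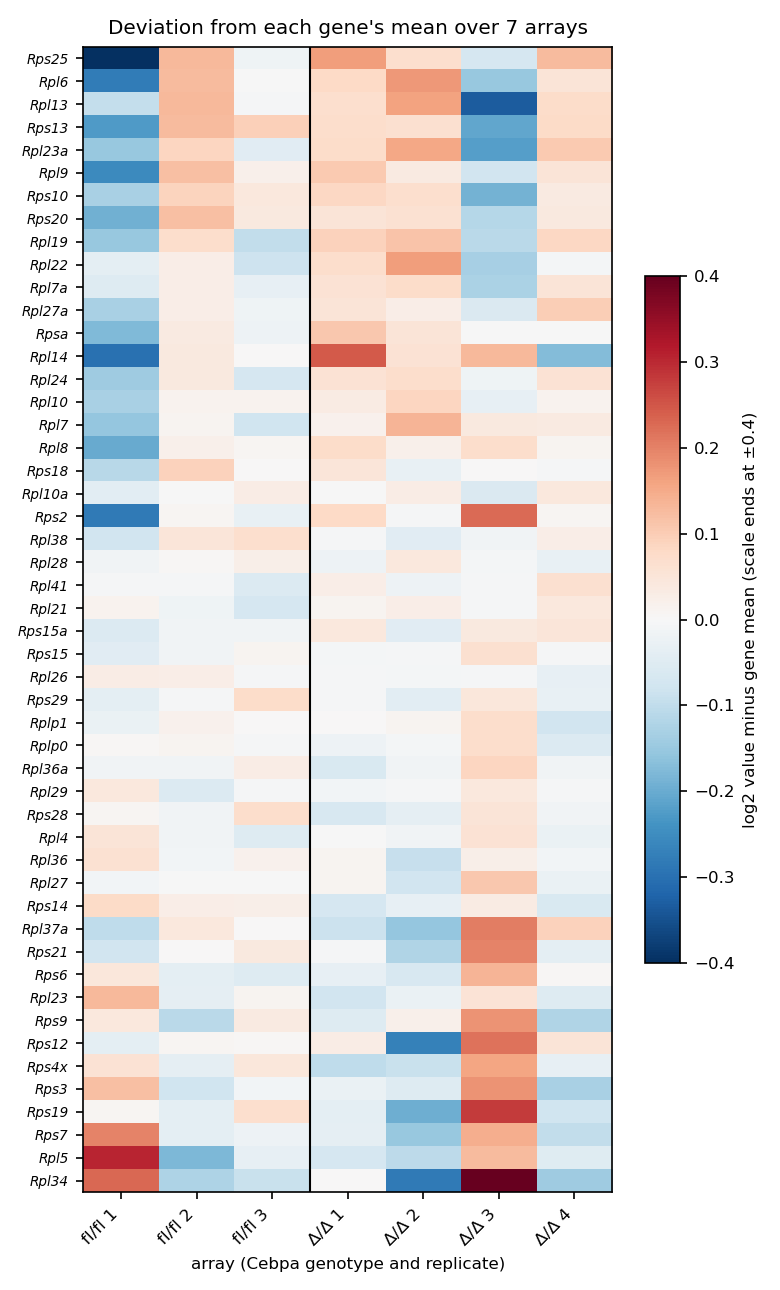
Log2 value minus the gene's mean over 7 arrays for the 50 genes above a level of 9 without paralogs, ordered by their weight in the first component of these genes. The black line divides Cebpa fl/fl from Cebpa Δ/Δ. The colours of fl/fl 1 and Δ/Δ 3 run from blue at the top to red at the bottom, and those of Δ/Δ 2 run the other way. The weights come from these same values, so this run of colours follows from the ordering.

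Without fl/fl 1 and Δ/Δ 3, the median difference of the 58 genes was -0.0049, 0 were called at any threshold, and 54 intervals again lay inside 1.5-fold. The range then was -0.38 to 0.46.

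Different probe sets of a gene gave like differences. The 58 genes had 213 single-gene probe sets, 38 genes had more than 1 and Rps12 had the most, 14. Over the 213, the median difference was 0.02, the range was -0.12 to 0.39 and 0 passed any threshold. Within the 38 genes, the probe sets' differences spanned a median of 0.05 and at most 0.14, while their levels spanned a median of 0.41 and at most 1.76. The deviation of Δ/Δ 3 had 1 sign over all probe sets for 32 of the 38 genes and that of fl/fl 1 for 25. Ribosomal protein genes have many near-identical processed copies in the genome, so probe sets listed for a gene can share target sequence, and in 5 genes 12 probe sets repeated another's values exactly. These probe sets are therefore not independent readings. The annotation used gives no positions, so the probe set used for a gene may itself have been designed on a processed copy. Another 233 probe sets with several symbols, at least 1 of which fits the rule, had a median difference of 0.03, ranged from -0.60 to 0.17 and had 0 past any threshold, and 224 of their intervals lay inside 1.5-fold.

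**Figure D5:**
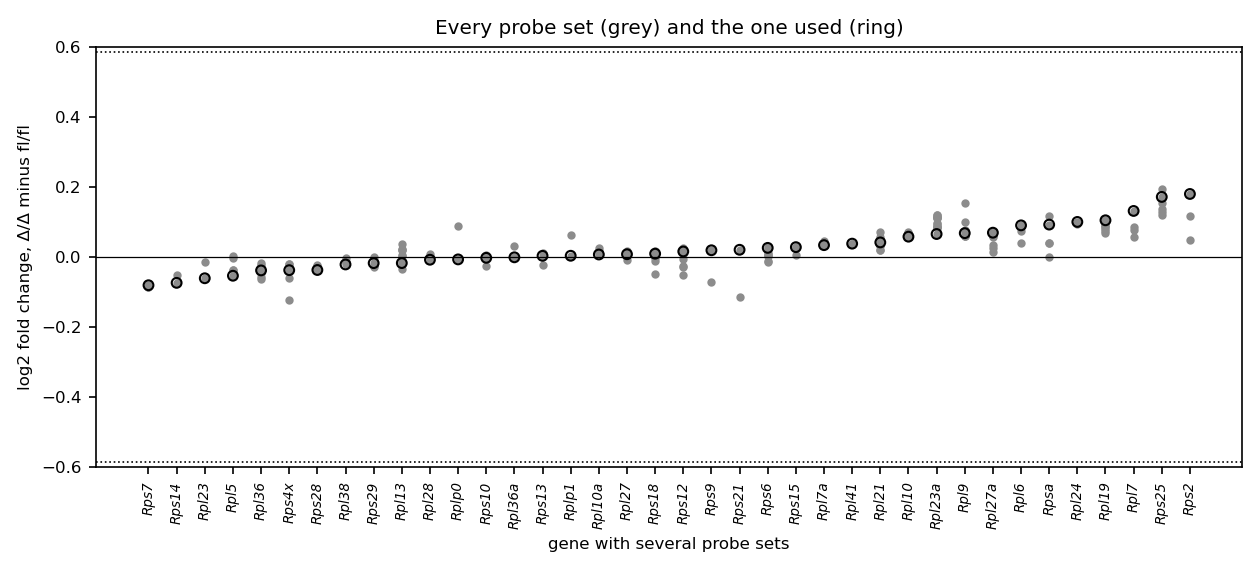
Log2 difference between Cebpa Δ/Δ and Cebpa fl/fl for every single-gene probe set (grey) of the 38 genes with several, and for the probe set used (ring), the one with the highest mean. Dotted lines mark 1.5-fold. Within a gene the points span at most 0.14, and none comes near a dotted line.

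Genes that make, load or regulate ribosomes were set beside them. Of 59 measured genes of ribosome biogenesis, 2 were higher at an unadjusted p under 0.05 and 0 were lower, with a median difference of 0.07. Over all genes 4.4% were higher and 3.08% lower at that threshold, so this count of 2 in 59 was no larger a share. The 2 were Rrs1, which assembles the large subunit with the 5S ribosomal RNA (0.51, SE 0.14, adjusted p = 0.564 by limma), and the RNA helicase gene Ddx10 (0.33, SE 0.11). Of 14 genes of RNA polymerase I, 1 was lower, Polr1e (-0.25, SE 0.10), and the median was 0.04.

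Of 23 translation initiation genes, 1 was higher past the study's thresholds, beside 1.57% of all genes. It was Eif2s2, a subunit of the factor that brings the initiator tRNA. Eif2s2 measured 9.08 ± 0.39 in Cebpa fl/fl (SD, n = 3) and 9.72 ± 0.15 in Cebpa Δ/Δ (n = 4), a difference of 0.64 (SE 0.19, adjusted p = 0.622 by limma). Its arrays did not overlap, with Cebpa Δ/Δ higher, which held for 3.51% of all genes. Of 11 elongation genes 1 was higher at an unadjusted p under 0.05, Eif5a (0.33, SE 0.12), whose product helps stalled ribosomes to form peptide bonds. Of 13 chaperones and importers of ribosomal proteins, Bccip was higher (0.49, SE 0.15) and Tnpo1 lower (-0.32, SE 0.10) at that threshold. Over all genes 4.4% were higher and 3.08% lower there, so single genes in lists this short say little. Of 25 genes of growth control, among them Myc, Mtor and Larp1, 0 passed, and the smallest p was that of Akt1 (-0.34, SE 0.17, unadjusted p = 0.0968 by limma).

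The 77 genes of the mitochondrial ribosome, a list added after values of these data had been seen, had a median difference of 0.15, with 60 above 0. Over all genes 9974 of 19938 lay above 0. At an unadjusted p under 0.05, 12 of the 77 were higher, beside 4.4% of all genes, and 0 lower, beside 3.08%. Past the study's thresholds 1 was higher, beside 1.57% of all genes, Mrps36 (0.78, SE 0.21, adjusted p = 0.565 by limma). Across the other settings, the median of the 77 stayed between 0.11 and 0.19. The number higher at an unadjusted p under 0.05 stayed between 3 (without fl/fl 3) and 13 (without fl/fl 2). Without Δ/Δ 1 it was 4, and without fl/fl 1 and Δ/Δ 3 it was 6. The medians of both lists stand side by side as descriptions, and their difference was not tested.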

How the data were processed

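RNA of sorted HSCs was amplified (NuGEN), biotinylated and measured on Mouse Gene ST arrays (Affymetrix). The deposited intensity values are the authors' Robust Multichip Average (RMA) on a linear scale (1.51 to 9840), and log2 was taken without a pseudocount. RMA and affy are named, with no version, in the submitters' processing notes. RMA equalises the arrays' distributions and hides any change in a cell's total RNA. The number of arrays limits the precision.

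Of 35556 probe sets, 21789 had 1 gene symbol, 1621 several and 12146 were unnamed here. Symbols were updated through the Entrez number for 21698. The probe set with the highest mean was used for each gene. Genotypes were compared over 19938 genes in R 4.3.3 using limma 3.58.1 (lmFit, eBayes), with genotype as the only term and Benjamini-Hochberg adjustment at 0.05, after the fit had been tested on simulated data. The study names no array test, so its thresholds were read from limma's p. Summaries used Python 3.11.15 with pandas 2.3.3 and numpy 2.4.6. Replicates 1 to 3 share numbers across genotypes. Deviations from the genotype mean correlated at -0.02, 0.10 and -0.18 between same-numbered arrays, and the replicate number was not used as a pairing. The largest correlations across genotypes were between fl/fl 3 and Δ/Δ 4 (0.33) and between fl/fl 1 and Δ/Δ 3 (0.27). Whether such arrays shared a batch was not tested. Whether replicates are separate preparations beyond the count of mice is not stated. Shares and sums carry no depth.

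Members and gene lists were chosen with earlier results of these data known. Named genes were those past a threshold or not overlapping, the 8 highest and 8 lowest differences, the 6 highest and 6 lowest levels, the 6 largest SDs, paralogs, a fixed set of known genes, and in other lists those past the thresholds or the 2 with the smallest p. Alternatives covered scaling, array weights, moderation, filters, probe set choice, a replicate block and left-out arrays.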

Additional observations from a re-analysis of the deposited data

Results flagged for a closer look

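Of the 32 genes named by the rules above, Rpl19 and Rpl3l had 1 Cebpa Δ/Δ array far from the other 3 by Dixon's test at 95%. Chance alone meets this in about 1 in 20 groups. The rest of the 58 genes are not listed here, and some of them also had an array apart. Rps13, for example, measured 11.52 in Δ/Δ 3 against 11.80, 11.79 and 11.80 in the others. Rpl19 measured 11.87 in Δ/Δ 3 against 12.07, 12.09 and 12.06 in the others, a gap of 0.864 of the range. Rpl3l measured 4.07 in Δ/Δ 2 against 3 arrays at the identical value 4.22, a gap of 1.0 of the range, which the repeated value fixes whatever value the differing array holds. Neither pattern was tested further.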

How the results depend on the processing

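Over all alternatives run, 0 of the 58 genes passed the adjusted threshold or the study's thresholds, and 51 to 55 had intervals inside 1.5-fold. The fit to genes above the median level held only 55 of the 58. Of the single named values under these alternatives, 601 stayed on their side of the unadjusted threshold and 4 newly passed it. Cyclic loess gave 1 gene lower at an unadjusted p under 0.05 (Rps14, -0.14, unadjusted p = 0.0452 by limma) and a median of -0.045. An intensity trend in limma gave 1 gene higher (Rpl7, unadjusted p = 0.0380). Raising low values to the 25th percentile also gave 1, Rpl7 (unadjusted p = 0.0405 by limma). Leaving out each array in turn gave 0 to 2 higher, the 2 (Rpl7 and Rpl24, the latter named after its value was seen) without fl/fl 2, with medians of 0.00 to 0.03. The replicate number as a block, where Δ/Δ 4 has no partner, gave 0 called, a median of 0.02 and 51 intervals inside 1.5-fold. The causes were not tested. For 19 of 32 named genes the sign changed in at least 1 setting. Of the 58 genes, Rpl12, Rplp2, Rps27l and Rpl10l were read too variably to bound a 1.5-fold difference.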
